A study of Homo sapiens with 6 samples.

Results

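BxPC3, a cell line established from a human pancreatic ductal adenocarcinoma, was compared on 4 expression arrays, 2 of control cells and 2 of KDM6A knockout cells. These were all the BxPC3 arrays among the 6 of the series; the others are 1 control and 1 knockout array of another pancreatic cancer line, Panc1. Every probe set that carries a single gene symbol entered the comparison, and each gene was represented by its brightest such probe set over the 4 arrays. Of 19775 genes, 13217 exceeded the median of all probe sets on at least 1 of the 4 arrays and were tested. The knockout cells had been infected with a lentivirus carrying Cas9 and a guide RNA against KDM6A, selected with puromycin and cloned by limiting dilution. The control group is labelled KDM6A wild type. Neither the presence of a vector in the control cells nor the number of clones on the 2 knockout arrays is given in the sources used here, and separate cultures are not stated for the arrays of a group. Each p-value thus measures only the spread between these arrays, which may be technical.

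KDM6A, also called UTX, is a demethylase that removes methyl groups from lysine 27 of histone H3, a mark laid down by Polycomb repressive complexes. It is a subunit of the MLL3 and MLL4 complexes, which act at enhancers, and it is mutated in a subset of pancreatic cancers, in particular of the squamous kind. The pancreatic duct epithelium, which these tumours resemble, secretes mucins and bicarbonate and, when irritated, chemokines and antimicrobial proteins.

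The guide, as the study gives it, is shown because every knockout array depends on it.
KDM6A guide: attcgtgctgcaagtgcag
It has 19 bases, and its site in the gene was not placed here. The KDM6A transcript itself was still detected in the knockout. Its brightest probe set read 8.02 and 7.85 on the control and 7.29 and 7.01 on the knockout arrays, a difference of -0.79 ± 0.12 (SE) with an adjusted p of 0.0275. Another KDM6A probe set read 6.16 and 6.29 on the control and 5.30 and 5.14 on the knockout arrays, a further one 6.84 and 6.85 against 5.76 and 5.93, and a dim one, below the array median on all 4 arrays, differed by 0.07. A cut and repaired gene can still be transcribed, so that these values check the labels only in part. All 5 probe sets for SMAD4, a gene known to be deleted in BxPC3, lay below the array median on all 4 arrays, control and knockout alike. Of the 12 markers of pancreatic duct epithelium, 11 had a probe set with a single symbol, and 10 of these exceeded the array median on every array. Markers of other cell types exceeded the array median on all 4 arrays less often. This held for 5 of 13 fibroblast and stellate, 3 of 11 leukocyte and 3 of 10 endothelial markers. It also held for 1 of 11 acinar and endocrine and 3 of 10 neural markers. In the same order, 6, 6, 3, 9 and 5 markers lay below the median on all 4 arrays. Between groups, the mean log2 level of the fibroblast markers was 4.96 and 4.86 on the control and 4.70 and 4.68 on the knockout arrays, that of the duct markers 10.6 and 10.6 against 10.3 and 10.2, and that of the leukocyte markers 4.46 and 4.41 against 4.37 and 4.54.

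Array medians lay between 5.00 and 5.06 on the log2 scale. The control arrays correlated at 0.998 over all probe sets, the knockout arrays at 0.996, and a control with a knockout array at 0.993 to 0.995. The knockout arrays differed from each other more (SD of the difference 0.230) than the control arrays did (0.158), and 0 tested genes differed 2-fold within either pair.

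Knockout and control differed at 771 of 13217 tested genes, or 5.83%, at an adjusted p under 0.05 (limma with Benjamini-Hochberg adjustment). Losses were more common than gains: 582 genes fell, or 4.40% of those tested, and 189 rose, or 1.43%. They were also larger, with 147 genes falling and 20 rising at least 2-fold. The median difference was -0.69 among genes that fell and 0.57 among those that rose, and 435 of the falls and 169 of the rises were under 2-fold. The median over all tested genes was 0. A difference is knockout minus control throughout, on the log2 scale, where a difference of -1 is a 2-fold loss. Differences of dim genes are understated because RMA does not let a probe set go to 0, and 70 of the genes that fell lay under the median of both knockout arrays. Fewer cells of a kind and less RNA per cell cannot be told apart on such arrays.

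The split between losses and gains depended on the scaling. When the arrays were quantile-normalised again, 649 genes fell and 353 rose, so that losses made up 64.8% of the calls instead of 75.5%. The number of calls moved by over 1.5 times without control replicate 1, control replicate 2 or knockout replicate 1. Without control replicate 1 it was 162 (143 fell, 19 rose), without control replicate 2 it was 137 (118 fell, 19 rose), without knockout replicate 1 it was 1439 (1007 fell, 432 rose), and without knockout replicate 2 it was 733 (479 fell, 254 rose).

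**Figure D1:**
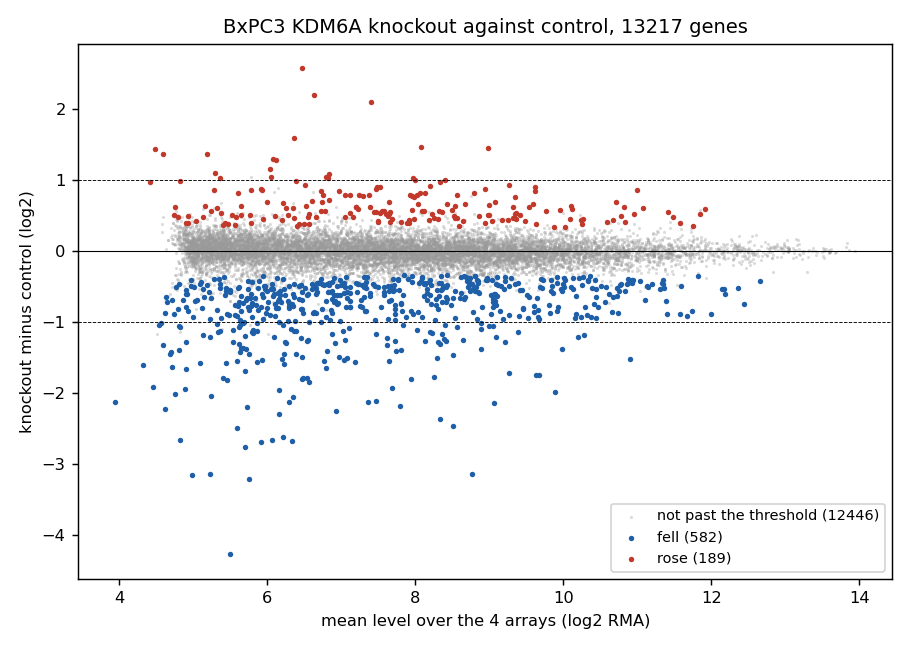
Each point is 1 of 13217 tested genes, with its mean level over the 4 arrays on the x axis (log2 RMA value) and its knockout minus control difference on the y axis (log2). The 582 genes that fell are blue, the 189 that rose red and the 12446 others grey; dashed lines mark 2-fold, and the largest falls reach further from 0 than the largest rises.

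Genes with more than 1 informative probe set gave another reading. The 582 genes that fell had 457 further probe sets, of which 425, or 93.0%, were also lower in the knockout, with a median of -0.48. The 189 that rose had 167, of which 163, or 97.6%, were higher, with a median of 0.43. Among tested genes that were not called, 69.7% of 10620 further probe sets had the sign of the chosen one. Probe sets of 1 gene share the RNA of the same arrays and are not independent of each other. Probe sets whose names end in _x_at or _s_at can match several transcripts or genes. Of the 220 called genes named here, 209 could be tested with all their probe sets averaged, and 19 of these lost their call; 164 could be tested on probe sets without those endings, and 22 lost it. The values are given beside each gene whose call ended and whose difference moved by over 1.5 times, which were 12 by averaging and 8 without those endings. Averaging moved the differences of 21 others by over 1.5 times with the call kept, among them CCND2 (-1.22 by averaging), CFB (-0.76), CLDN4 (-0.40), GDF15 (-0.46) and S100A8 (-1.48).

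The antiviral programme driven by interferon was lower at most of its output genes. Of 56 tested interferon-stimulated effectors, 43 fell and 0 rose, with a median of -0.61, and all 56 were below the control mean on each knockout array. Of all 13217 tested genes, 6282 were below it on knockout array 1 and 7297 on knockout array 2. The median of the effectors was -0.64 on knockout array 1 and -0.72 on knockout array 2, while the controls differed from each other by -0.078. Among the RNA-binding antiviral proteins 9 of 11 fell, among the GTPases 4 of 6, among the membrane proteins 4 of 7, among the ubiquitin-like and TRIM proteins 6 of 9, and among the others 20 of 23.

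IFIT1, which binds viral RNA that lacks the host cap, read 11.61 and 11.70 on the control and 10.22 and 10.06 on the knockout arrays, a difference of -1.52 ± 0.084 (SE) with an adjusted p of 0.00249. OAS1, an enzyme that makes the activator of RNase L when it meets double-stranded RNA, read 10.10 and 10.19 on the control and 9.33 and 9.06 on the knockout arrays, a difference of -0.95 ± 0.11 (SE) with an adjusted p of 0.0126. In both genes the groups were well apart. Smaller differences were shared by the neighbours of each: IFIT2 (-0.81), IFIT3 (-0.91), IFIT5 (-0.77), OAS2 (-0.90) and OAS3 (-0.76) all fell, as did OASL (-0.40). ISG15, a ubiquitin-like modifier, read 12.09 and 12.23 on the control and 11.29 and 11.35 on the knockout arrays, a difference of -0.84 ± 0.079 (SE) with an adjusted p of 0.00809. Its conjugating and ligating enzymes UBE2L6 (-0.92) and HERC5 (-0.54) and its deconjugating enzyme USP18 (-1.47) fell too. RSAD2, which makes a chain-terminating nucleotide, had the largest difference in the list (8.34 and 8.52 on the control and 6.36 and 6.25 on the knockout arrays, difference -2.12), and CMPK2, its neighbour in that reaction path, was next (-1.71). Among the guanylate-binding proteins, which attack vacuoles holding pathogens, GBP1 (-0.91), GBP4 (-1.04) and GBP5 (-0.91) fell. The end of the list nearest to 0 was ZC3HAV1, a zinc finger antiviral protein, at -0.04, which did not pass the threshold.

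Of 9 tested genes grouped as sensors of foreign nucleic acid, which here include the adaptor STING1, 7 fell, with a median of -0.58. IFIH1, the sensor MDA5 for long double-stranded RNA, read 9.47 and 9.58 on the control and 8.66 and 8.28 on the knockout arrays, a difference of -1.05 ± 0.14 (SE) with an adjusted p of 0.0198. RIGI, its counterpart for short RNA ends, read 9.39 and 9.54 on the control and 8.72 and 8.44 on the knockout arrays, a difference of -0.88 ± 0.12 (SE) with an adjusted p of 0.0186. ZBP1, which binds left-handed nucleic acid, read 5.50 and 5.57 on the control and 3.73 and 4.08 on the knockout arrays (-1.63). AIM2 (-0.76), TLR3 (-0.58) and IFI16 (-0.51) fell too. STING1 (-0.54), the last of the group to fall, acts as an adaptor in DNA sensing and not as a sensor itself. Among 8 other tested adaptors and kinases, 6 interferon receptor chains and 6 transcription factors limma called 0, and their medians were -0.03, 0.09 and -0.17. At an unadjusted p under 0.05, 7 of these 20 genes differed, 6 of them lower, where 2838 of all 13217 tested genes did. The 0 depended on the processing: 2 of the 20, both transcription factors, fell with probe sets averaged, with arrays centred on their median, with cyclic loess or with quantile scaling, 4 fell with a variance trend and 3 without knockout replicate 1. Whether sensors and transcription factors differ from each other was not tested. Of the 5 listed interferon ligand genes, 0 exceeded the array median, so that none was tested. Sensors are themselves interferon-stimulated genes in many cells, so that the sensors and effectors are not separate readouts. The counts depended on the control arrays: 10 effectors and 2 genes of the sensing and signalling list fell without control replicate 1, and 4 and 2 without control replicate 2. With knockout replicate 1 left out, 51 effectors and 13 of the sensing list fell, and with knockout replicate 2 left out, 35 and 7. On probe sets without the _x_at or _s_at ending, 27 of 42 effectors fell.

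The display of antigen to T cells and natural killer cells went the same way. Of 28 tested antigen presentation genes 13 fell and 0 rose, with a median of -0.35. HLA-B, a class I heavy chain, read 12.42 and 12.47 on the control and 11.61 and 11.51 on the knockout arrays, a difference of -0.89 ± 0.071 (SE) with an adjusted p of 0.0054. The class I genes HLA-C (-0.60), HLA-E (-0.39), HLA-F (-0.79) and HLA-G (-0.50) fell as well, with the reservation that probe sets of these near-identical genes can share signal. On probe sets without the _x_at or _s_at ending, 3 class I genes could be tested and 0 fell, among them HLA-E (-0.30, adjusted p 0.09) and HLA-F (-0.65, adjusted p 0.075), and 7 of 23 genes of the whole list fell. TAP1, a chain of the peptide pump of the endoplasmic reticulum, read 8.89 and 8.97 on the control and 8.24 and 8.31 on the knockout arrays, a difference of -0.66 ± 0.072 (SE) with an adjusted p of 0.0117, and TAP2 (-0.66), the immunoproteasome subunit PSMB9 (-0.60) and the class I transactivator NLRC5 (-0.77) also fell. The other 10 of 14 genes of peptide generation and loading did not pass. Of 3 tested class II genes limma called 0, and 0 had an unadjusted p under 0.05. Ligands of the activating receptor NKG2D, by which natural killer cells see stressed cells, fell at 4 of 5: RAET1E (-0.95), MICB (-0.51), MICA (-0.50) and ULBP2 (-0.49). With either control replicate 1 or control replicate 2 left out, 0 genes of this list fell, although 17 fell without knockout replicate 1 and 13 without knockout replicate 2.

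Of 33 tested cytokine and chemokine genes, the secreted signals of inflammation, 15 fell and 1 rose, with a median of -0.41. IL1A, an alarm cytokine of epithelia, read 11.16 and 11.20 on the control and 10.28 and 10.34 on the knockout arrays, a difference of -0.87 ± 0.067 (SE) with an adjusted p of 0.00491; with its probe sets averaged it differed by -0.43 (adjusted p 0.0777). IL1B (-0.90), IL36G (-1.78) and the antagonist IL1RN (-0.93), which sit beside IL1A on chromosome 2, fell with it, although IL1RN differed by -0.17 (adjusted p 0.541) on probe sets without the _x_at or _s_at ending. CXCL10, an interferon-induced attractant of T cells, read 10.51 and 10.75 on the control and 9.70 and 9.68 on the knockout arrays, a difference of -0.94 ± 0.097 (SE) with an adjusted p of 0.0103, and its relative CXCL11 was lower by a similar amount (-0.83). The neutrophil attractants CXCL3 (-0.58) and CXCL8 (-0.51), the mucosal chemokine CXCL17 (-1.79) and the dendritic cell attractant CCL20 (-1.78) fell, as did IL6 (-1.02), IL7 (-1.39) and IL23A (-0.64). The exception was TSLP, an epithelial cytokine that primes type 2 responses, which rose: it read 7.03 and 7.03 on the control and 8.06 and 7.81 on the knockout arrays, a difference of 0.91 ± 0.098 (SE) with an adjusted p of 0.0116. Among 4 tested ligands of the TNF superfamily, TNFSF9 (-1.85), TNFSF10 (-0.84), also called TRAIL, and TNFSF13B (-0.66) fell, while of 12 receptors 1 fell and 1 rose (TNFRSF10A -0.44, TNFRSF21 0.53). In the NF-kB pathway, 0 of 8 receptors and 0 of 5 subunits were called by limma, with 2 of these 13 at an unadjusted p under 0.05, where 5.83% of all tested genes were called, so that a count of 0 says little about them. TRAF1 (-0.74), IRAK2 (-0.41) and NFKBIZ (-0.41), themselves inducible, were the 3 of 33 that fell; 0 of the list fell with probe sets averaged, where IRAK2 differed by -0.14 (adjusted p 0.294), 0 without control replicate 1, 0 without control replicate 2 and 9 without knockout replicate 1. Of the cytokine and chemokine genes, 6 fell without control replicate 1, 3 without control replicate 2, 17 without knockout replicate 1 and 12 without knockout replicate 2.

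The barrier genes of stratified epithelium were the next group. Squamous differentiation is marked by basal keratins, by small proline-rich proteins that are crosslinked into the cornified envelope, and by S100 proteins, and a squamous programme of this kind has been described in KDM6A-deficient pancreatic tumours. In these arrays 9 of 19 tested cornified envelope genes fell and 0 rose, with a median of -0.47. SPRR1A read 10.90 and 10.84 on the control and 9.70 and 9.69 on the knockout arrays, a difference of -1.18 ± 0.066 (SE) with an adjusted p of 0.00249. SPRR1B (-0.93), SPRR2B (-2.46), whose close copies may share its probe set, and SPRR3 (-2.37) fell, as did the lipid transporter ABCA12 (-1.43), SCEL (-0.52) and the surface proteins LY6D (-1.32), LYPD3 (-0.74) and TMPRSS11D (-1.26). Without control replicate 1, 5 of the 19 fell, and without control replicate 2, 4 did.

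Keratins were called in both directions. KRT14, a keratin of basal cells, read 8.13 and 7.98 on the control and 5.73 and 5.87 on the knockout arrays, a difference of -2.26 ± 0.091 (SE) with an adjusted p of 0.00115, and KRT16 (-0.53) and KRT23 (-1.27) fell. The other 2 of 3 tested basal keratins were above 0 and not called, among them KRT15 (0.54, limma adjusted p 0.0689). The median of the basal keratins was 0.11. KRT13, a keratin of the upper layers of moist epithelia, rose: it read 10.57 and 10.56 on the control and 11.54 and 11.32 on the knockout arrays, a difference of 0.86 ± 0.091 (SE) with an adjusted p of 0.0111. The median of the 14 tested keratins was 0.12, above that of all genes, and 0 of 4 keratins of simple epithelium were called by limma or had an unadjusted p under 0.05. Among 14 squamous transcription factors the epidermal factor ZNF750 fell (6.23 and 6.38 on the control and 4.71 and 4.31 on the knockout arrays, difference -1.79) and SOX2 rose (0.56), with the median at -0.01; with its probe sets averaged SOX2 differed by 0.20 (adjusted p 0.266). SOX9, a factor of duct and progenitor cells, read 7.91 and 7.97 on the control and 7.00 and 6.95 on the knockout arrays, a difference of -0.97 ± 0.067 (SE) with an adjusted p of 0.00368. Of the S100 family 5 of 15 fell: S100A7 (-2.66), S100A8 (-2.62), S100A9 (10.10 and 10.16 on the control and 8.24 and 7.75 on the knockout arrays, difference -2.14), S100A4 (-1.05) and, least, S100P (-0.35). Of this family 4 fell without control replicate 1 and 4 without control replicate 2, and 2 of 13 on probe sets without the _x_at or _s_at ending.

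Inhibitors of proteases fell at 15 of 27 tested genes, and 1 rose, with a median of -0.41. Among serpins of the B clade, which trap proteases inside cells or at wounded surfaces, 6 of 8 fell. SERPINB1, an inhibitor of neutrophil elastase, read 9.54 and 9.61 on the control and 8.24 and 8.15 on the knockout arrays, a difference of -1.38 ± 0.071 (SE) with an adjusted p of 0.00209, and it fell along with SERPINB7 (-1.65), SERPINB9 (-0.93), SERPINB3 (-0.81), SERPINB13 (-0.68) and SERPINB4 (-0.66). SERPINB3 and SERPINB4 are close copies whose probe sets can share signal. PI3, the elastase inhibitor elafin, read 10.93 and 10.82 on the control and 8.90 and 8.89 on the knockout arrays, a difference of -1.98 ± 0.071 (SE) with an adjusted p of 0.000974, and its relative SLPI fell (-0.70), as did the secreted cystatins CST1 (-0.81), CST3 (-0.46) and CST4 (-0.62). SPINK4, a Kazal-type inhibitor of the gut, went the other way and read 6.33 and 6.35 on the control and 8.57 and 8.34 on the knockout arrays. With control replicate 1 or control replicate 2 left out, 2 members fell in either case, and 9 of 20 fell on probe sets without the _x_at or _s_at ending.

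Proteases of the plasminogen system fell at 3 of 4 genes: PLAT, the tissue plasminogen activator (8.87 and 8.90 on the control and 6.78 and 6.62 on the knockout arrays, difference -2.18), the urokinase gene PLAU (-0.40) and its receptor PLAUR (-0.75). Of 14 metalloproteases MMP7 (-1.27) and MMP1 (-0.48) fell and ADAMTS1 (0.45) rose. Coagulation control genes at the cell surface, the protein C receptor PROCR (-1.07) and thrombomodulin THBD (-0.61), fell too. Of 13 kallikreins and membrane serine proteases, TMPRSS4 fell (-1.29) and PRSS23 rose (0.55). Complement factor B, CFB, which starts the alternative pathway, read 7.50 and 7.59 on the control and 6.10 and 5.89 on the knockout arrays, a difference of -1.55 ± 0.095 (SE) with an adjusted p of 0.0029, and C1S (-0.72) and C3 (-0.49) were lower. In the plasminogen and matrix protease list 2 genes fell without control replicate 1 and 2 without control replicate 2, and 3 of 12 on probe sets without the _x_at or _s_at ending.

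**Figure D2:**
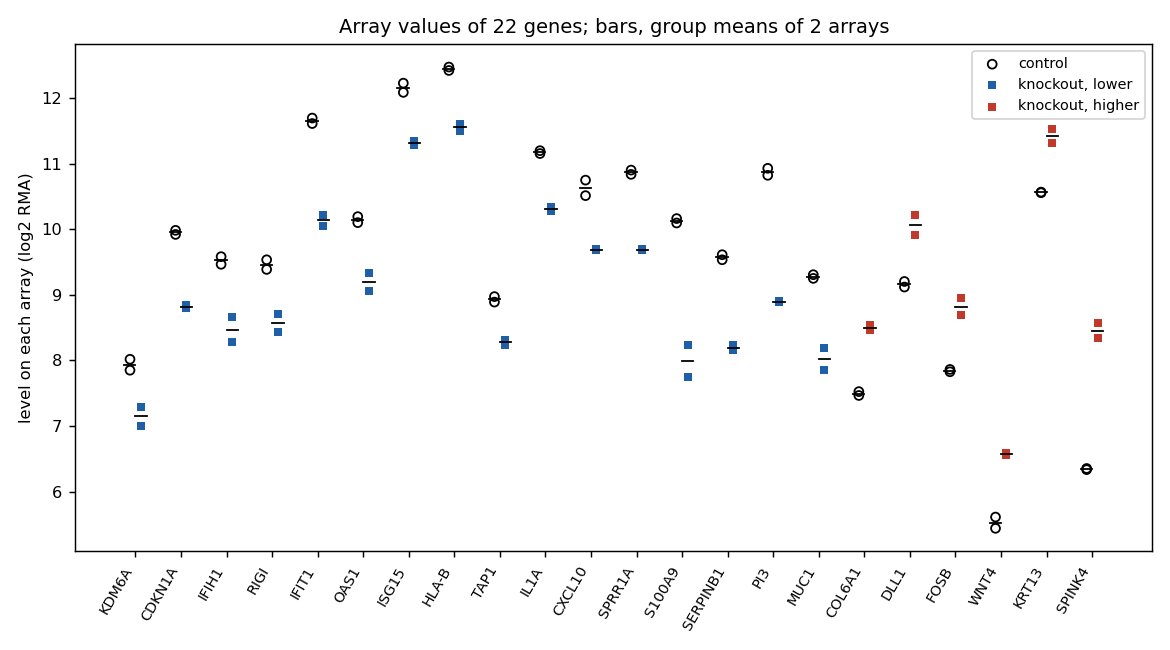
Every array is shown for 22 genes, with the log2 RMA level on the y axis; open circles are the 2 control arrays, squares the 2 knockout arrays (blue where lower, red where higher), and short bars the group means. Control and knockout arrays do not overlap in any of these genes, which were taken from the called genes of the text, and heights of different genes are not comparable.

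Secretory and transport genes of duct and mucosal cells were mostly lower among those called. Of 21 tested mucosal secretory proteins 8 fell and 1 rose, while the median was 0.02. MUC1, a membrane mucin of duct cells, read 9.31 and 9.25 on the control and 8.19 and 7.85 on the knockout arrays, a difference of -1.26 ± 0.13 (SE) with an adjusted p of 0.00969, and MUC13 (-1.06), MUC20 (-0.97) and MUC2 (-0.59) fell. PIGR, which carries immunoglobulin A across epithelia (-2.50), the iron-binding lipocalin LCN2 (-0.88) and the antimicrobial ribonuclease RNASE7 (-1.31) fell, and the defensin DEFB1 rose (7.74 and 7.74 on the control and 8.73 and 8.58 on the knockout arrays, difference 0.92). On probe sets without the _x_at or _s_at ending PIGR differed by -0.01 (adjusted p 0.970), and 5 of 18 genes of the list fell. Ion transport genes fell at 8 of 34, including the carbonic anhydrases CA2 (-3.21), CA13 (-2.66) and CA12 (-0.55), which supply bicarbonate, the sulfate transporter SLC26A2 (-0.50) and the sodium channel subunit SCNN1A (-0.72); the potassium channel KCNJ2 rose (0.71). SCNN1A differed by -0.25 (adjusted p 0.101) with its probe sets averaged, and CA12 by -0.88 (adjusted p 0.0803) without the _x_at or _s_at ending. The secretory list had 3 falls and the transport list 4 falls, each without control replicate 1 and again without control replicate 2.

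Genes that hold cells to each other fell at 8 of 36 and rose at 2. Tight junction genes fell at CLDN4 (9.16 and 9.25 on the control and 8.44 and 8.27 on the knockout arrays, difference -0.85), CLDN7 (-0.53), OCLN (-0.67) and TJP3 (-0.89). The gap junction gene GJA1, which encodes connexin 43, read 10.50 and 10.51 on the control and 8.81 and 8.71 on the knockout arrays, a difference of -1.74 ± 0.070 (SE) with an adjusted p of 0.00115. Of 10 desmosome genes 1 fell, PKP2 (-0.76). Among cadherins, CDH2, the N-cadherin of mesenchymal cells (6.44 and 6.28 on the control and 7.35 and 6.97 on the knockout arrays, difference 0.80), and CDH11 (0.62) rose, whereas CDH5, the cadherin of endothelium, fell (-2.19); CDH11 differed by 0.37 (adjusted p 0.443) without the _x_at or _s_at ending. CDH5 is also 1 of the 10 endothelial markers. Their mean level, which includes CDH5 itself, was 4.76 and 4.75 on the control and 4.53 and 4.70 on the knockout arrays. Of the 7 tested endothelial markers, CDH5 among them, 5 were above 0 and 2 below, with a median of 0.05. The part of other cells in the difference of CDH5 was not tested. Without control replicate 1, 3 junction genes fell, and without control replicate 2, 2 did.

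Matrix genes changed in both directions, 7 falling and 4 rising among 53, with a median of -0.02. COL6A1, a microfibrillar collagen chain, read 7.52 and 7.47 on the control and 8.54 and 8.46 on the knockout arrays, a difference of 1.00 ± 0.070 (SE) with an adjusted p of 0.00368, and COL5A2 (7.06 and 7.09 on the control and 8.04 and 7.93 on the knockout arrays, difference 0.91), COL12A1 (0.69) and the fibulin gene EFEMP1 (0.52) rose. The difference of COL6A1 rested on its brightest probe set: it was 0.27 (adjusted p 0.0758) with its probe sets averaged and 0.36 (adjusted p 0.116) without the _x_at or _s_at ending. COL8A1 fell (-0.98), as did the proteoglycans SDC2 (-2.77), SDC4 (-0.57) and VCAN (-1.19), osteopontin SPP1 (-2.69), ECM1 (-0.87) and the hyaluronan synthase HAS3 (-0.56). ITGBL1, which resembles an integrin beta chain without its membrane anchor, was the 1 of 14 integrin genes called, at 2.58. With probe sets averaged HAS3 differed by -0.26 (adjusted p 0.0682), and 3 of 41 matrix genes fell. Without control replicate 1, 4 matrix genes fell, and without control replicate 2, 3 did.

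Signalling lists held a few calls each. Called were 15.8% of 19 Notch, 14.7% of 34 Wnt, 10.3% of 39 TGF-beta and BMP and 12.5% of 48 EGFR and ERK genes. Of all tested genes 5.83% were called, and no test set these shares against each other. In the Notch pathway the ligand DLL1 rose (9.12 and 9.20 on the control and 10.22 and 9.91 on the knockout arrays, difference 0.90), while the targets HES4 (-0.47) and HES2 (-0.45) fell. In the Wnt pathway the ligands WNT4 (5.61 and 5.44 on the control and 6.59 and 6.55 on the knockout arrays, difference 1.04) and WNT10A (0.43) and the inhibitor APCDD1 (1.31) rose, the receptor FZD3 (-0.48) and the inhibitor NKD2 (-0.61) fell. Neither ligand kept its call on probe sets without the _x_at or _s_at ending, where WNT4 differed by 0.24 (adjusted p 0.186) and WNT10A by 0.04 (adjusted p 0.831). Of the TGF-beta and BMP genes, TGFB2 rose (0.52), GDF15 (-1.10), ID3 (6.40 and 6.34 on the control and 5.43 and 5.03 on the knockout arrays, difference -1.14) and TGFBI (-0.69) fell. Among 14 growth factor receptors and 5 kinases of the EGFR and ERK pathway limma called 0, and 3 of these 19 had an unadjusted p under 0.05. Of its 15 feedback inhibitors limma called 3, and 9 had an unadjusted p under 0.05, 8 of them lower. Their median was -0.28, and 13 were below 0. In the same pathway the ligands TGFA (-0.47) and HBEGF (-0.46) and the feedback inhibitors DUSP5 (-0.47), DUSP10 (-0.50) and ERRFI1 (-0.38) fell by small amounts, with HBEGF at -0.14 (adjusted p 0.299) when its probe sets were averaged; 0 genes of this list fell without control replicate 1, and 0 without control replicate 2. In the insulin-like growth factor system IGFBP2 (9.05 and 9.04 on the control and 7.59 and 7.48 on the knockout arrays, difference -1.51) fell and IGFBP5 (8.30 and 8.21 on the control and 9.88 and 9.54 on the knockout arrays, difference 1.45) rose, so that binding proteins of the same ligands moved apart. The AP-1 subunits FOS (0.62) and FOSB (7.83 and 7.86 on the control and 8.95 and 8.69 on the knockout arrays, difference 0.98) rose and the small Maf protein MAFF fell (-0.54).

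Of 25 tested genes of G1 control 5 fell and 0 rose, with a median of -0.03 and 11 genes above 0. CDKN1A, the CDK inhibitor p21 that the series title names, read 9.92 and 9.98 on the control and 8.84 and 8.79 on the knockout arrays, a difference of -1.14 ± 0.067 (SE) with an adjusted p of 0.00261. CCND2, a cyclin that drives G1, read 7.70 and 7.64 on the control and 4.73 and 5.28 on the knockout arrays, a difference of -2.67 ± 0.18 (SE) with an adjusted p of 0.00368, and CCND1 (-0.37), the repressor E2F5 (-1.15) and the inhibitor CDKN2D (-0.52) also fell. CDKN2D differed by -0.24 (adjusted p 0.227) with its probe sets averaged, and CCND1 did not pass with any of the 4 arrays left out. Of these 25 genes 3 fell without control replicate 1, 2 without control replicate 2, 5 without knockout replicate 1 and 3 without knockout replicate 2, while 0 of 18 fell on probe sets without the _x_at or _s_at ending. Of 26 other tested p53 target genes 1 fell, the metabolic regulator TIGAR (-0.50); 4 of 23 fell with probe sets averaged and 0 without control replicate 1 or control replicate 2. At an unadjusted p under 0.05, 10 of these 26 p53 targets were lower and 1 higher, where 1723 and 1115 of all 13217 tested genes were. Of 35 DNA replication genes 1 rose, the thymidine kinase TK1, by a small amount (0.34). At an unadjusted p under 0.05, 5 of the 35 were higher and 2 lower. By limma calls, 4.40% of all tested genes fell and 1.43% rose. The 47 mitosis genes had a median of 0.16 and 0 calls by limma, and 4 rose with arrays centred on their median, cyclic loess or quantile scaling. At an unadjusted p under 0.05, 16 were higher and 0 lower, where 1115 of all 13217 tested genes were higher and 1723 lower. On knockout array 1, 1 of 47 was below the control mean, with a median of 0.23, and on knockout array 2 11 were, with a median of 0.10. Of all tested genes, 6282 and 7297 were below it on these arrays.

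Of 75 tested genes for ribosomal proteins, the proteasome core, oxidative phosphorylation and the spliceosome limma called 0, 1 had an unadjusted p under 0.05, and their differences ran from -0.17 to 0.16 with a median of 0.01. Limma also called 0 of 33 genes for sterol and fatty acid synthesis, 0 of 19 for ribosome biogenesis and 0 of 15 HOX genes, of which 7, 6 and 1 had an unadjusted p under 0.05; 2 of the synthesis genes fell with arrays centred on their median, cyclic loess or quantile scaling. PPARG, a nuclear receptor for fatty acids, rose (8.21 and 8.24 on the control and 8.95 and 8.77 on the knockout arrays, difference 0.63). In the hypoxia response EGLN3 (-1.12), CA12 (-0.55) and NDRG1 (-0.54) and among glycolytic genes the glucose transporter SLC2A1 (-0.46) fell; of 36 genes of both lists 1 fell without control replicate 1, 1 without control replicate 2 and 0 of 21 on probe sets without the _x_at or _s_at ending. Metallothioneins split, with MT1G (-0.45), MT1X (-0.54) and MT2A (-0.43) lower and MT1M (0.53) higher, although these copies are so alike that their probe sets may not separate them; MT1G differed by -0.21 (adjusted p 0.116) with probe sets averaged. The iron exporter SLC40A1 (-1.12), the metalloreductase STEAP2 (-0.93) and ceruloplasmin CP (-0.78) fell, SLC40A1 differing by -0.58 (adjusted p 0.103) with probe sets averaged. Prostaglandin synthases PTGS1 (-0.56) and PTGS2 (-0.52) fell, as did the retinal dehydrogenase ALDH1A1 (-0.55).

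Of 79 tested chromatin regulators, 2.53% were called, against 5.83% of all tested genes, and no test set these shares against each other. KDM6A itself and the deacetylase HDAC9 (8.75 and 8.74 on the control and 8.17 and 8.02 on the knockout arrays, difference -0.64) fell and 0 rose; HDAC9 differed by -0.38 (adjusted p 0.0614) with its probe sets averaged. Among 58 other tested genes of the MLL3 and MLL4 complex, Polycomb, demethylation, DNA methylation and remodelling limma called 0, and 6 had an unadjusted p under 0.05; 2 fell without knockout replicate 1. Cancer-testis genes on the X chromosome, which most adult tissues keep silent, went both ways: MAGEA11 (4.62 and 4.39 on the control and 6.09 and 5.65 on the knockout arrays, difference 1.36) and MAGEB2 (1.47) rose and MAGEA12 (-0.49) and SPANXB1 (-3.14) fell. Copies within these families are alike, and their probe sets may share signal.

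All lists together held 1372 tested genes, of which 226 fell and 35 rose, or 19.0%, against 5.83% of all tested genes. The lists were assembled with earlier results of these data known, so that this share describes the lists and supports nothing further. The other 510 called genes belonged to none of them. By size, the ranks below the 12 largest losses over all tested genes held TCN1, a vitamin B12 carrier of mucosal secretions (7.26 and 7.37 on the control and 4.94 and 5.09 on the knockout arrays, difference -2.30), the mucosal glycoprotein OLFM4 (-2.13), the hormone alpha chain CGA (8.56 and 8.47 on the control and 6.57 and 6.25 on the knockout arrays, difference -2.11), the amino acid transporter SLC6A14 (-1.93), the cytidine deaminase APOBEC3G (-1.80), the lysosomal protein LAMP3 (-1.80), the clathrin-uncoating cofactor DNAJC6 (-2.04), the diamine oxidase AOC1 (-1.81) and the short-chain dehydrogenase DHRS2 (10.48 and 10.61 on the control and 8.85 and 8.74 on the knockout arrays, difference -1.75). Each was lower on both knockout arrays than on either control array. Their selection by size of loss fixed this, because 0 tested genes differed 2-fold within either pair of arrays.

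The ranks below the 12 largest gains held the calcium-activated membrane protein ANO3 (1.10), the glutamate transporter SLC1A1 (4.79 and 4.91 on the control and 5.87 and 5.88 on the knockout arrays, difference 1.03), the collagen-crosslinking oxidase LOXL4 (1.04), the cadherin CDH6 (5.96 and 5.84 on the control and 6.97 and 6.80 on the knockout arrays, difference 0.98), the neural adhesion protein CNTN1 (1.00), the adhesion molecule MCAM (0.88, but 0.05 with an adjusted p of 0.864 on probe sets without the _x_at or _s_at ending), the microtubule-end protein MAPRE2 (8.78 and 8.82 on the control and 9.76 and 9.71 on the knockout arrays, difference 0.94), the peroxidase GPX7 (0.98), the chromatin organiser SATB1 (0.84), the LIM-only factor LMO4 (0.84) and JDP2, a repressor of the AP-1 family (0.85).

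Called genes lay next to each other in places. Among the tested genes placed on chromosomes by RefSeq, 45 neighbourhoods were found in which at least 3 of 6 neighbouring tested genes were called, holding 160 called genes. Overlapping runs were merged, and each was trimmed to its first and last called gene. The share of called genes within a neighbourhood is therefore raised by the way it was chosen. In 25 of the 45 neighbourhoods every called gene fell, in 1 every called gene rose, and 19 were mixed. Of all calls 75.5% were falls, so that a shared fall is common among any few called genes. Whether the called genes lie closer together than their number alone would bring was not tested. Many hold families of similar function, among them GBP, IFIT, OAS, TAP and PSMB, serpin B, cystatin, keratin and metallothionein genes.

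The neighbourhood with most calls was the epidermal differentiation complex of chromosome 1, where 9 of 14 tested genes from SPRR1A to S100A4 fell and 0 rose. The other 5 did not pass the threshold, with differences from -0.28 (PGLYRP4) to 0.17 (SPRR2G). Of all tested genes 4.40% fell, but the choice and trimming of neighbourhoods raise the shares given here. On chromosome 2, IL1A, IL1B, IL36G and IL1RN fell within 9 tested genes. Further along that chromosome 5 of 7 tested genes fell, namely CCL20, DNER (-1.04), SP110 (-1.01), SP140L (-0.57) and SP100 (-0.38). On chromosome 20 all 4 tested cystatins, CST3, CST4, CST1 and CST2 (-0.93), fell, as did PI3, SLPI and SDC4 of a second group of 4. On chromosome 17 KRT13 rose and KRT14 and KRT16 fell within 6 tested genes, so that direction was not shared there. The 1 neighbourhood in which every called gene rose lies on chromosome 7 and holds CPED1 (0.37), PTPRZ1 (0.79) and the lysine-degrading enzyme AASS (5.38 and 5.58 on the control and 6.94 and 6.59 on the knockout arrays, difference 1.29).

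Chromosomes 5 and 13 stood apart by small shifts in the mean of both knockout arrays. On chromosome 5, 398 of 567 tested genes, or 70.2%, were below the control mean, with a median of -0.08; the share was 63.1% on knockout array 1 and 74.8% on knockout array 2. On chromosome 13, 31.1% of 222 genes were below it, with a median of 0.05, but here the arrays differed, with 25.7% on knockout array 1 and 46.8% on knockout array 2. On knockout array 2 alone chromosome 13 did not stand apart, because chromosomes 21 (41.2%) and 22 (46.2%) were lower. Chromosome Y, with 5 tested genes, was left out. By the mean of both knockout arrays, the share on each of the other 21 chromosomes lay between 42.6% and 55.2% and the median between -0.02 and 0.03. Called genes on chromosome 5 were 35 that fell, or 6.17%, against 4.40% over all tested genes, and 4 that rose; chromosome 6 had the highest share of genes that fell, 7.73%, and chromosome 8 had 6.18%. The number of copies of each chromosome was not measured here, and its part in these values was not tested.

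Promoters of the genes were searched for short motifs. RefSeq gives 300 bases around the start of transcription, 250 before it and 50 after it, in GRCh38.p14, and 10612 tested genes had such a window. The interferon-stimulated response element, bound by STAT and IRF factors, was searched as GAAA, 2 bases of any kind and GAAA, on both strands. It was present in 2.76% of the promoters of tested genes, in 11.9% (54 of 454) of those of genes that fell, in 7.21% (8 of 111) of those that fell at least 2-fold and in 1.35% (2 of 148) of those of genes that rose; 3.65% of all promoters in the table hold it. Within the interferon and antigen presentation lists 30 of 51 promoters of genes that fell had it (58.8%), and outside those lists 24 of 403 (5.96%). Those 24 include interferon-induced genes such as CXCL10, so that the share outside the lists is not free of interferon genes. The share among list members that did not fall is not given here. Read the other way, 54 of 293 tested genes with the motif fell (18.4%), against 3.88% of those without it. The share among genes that fell was 7.84% without control replicate 1 and 5.81% without control replicate 2.

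The AP-1 motif, bound by FOS and JUN proteins, was searched as TGANTCA, which reads alike on both strands. It was present in 4.86% of the promoters of tested genes, in 13.2% (60 of 454) of those of genes that fell, in 19.8% (22 of 111) of those that fell at least 2-fold and in 5.41% (8 of 148) of those that rose; 7.76% of all promoters in the table hold it. Of tested genes with the motif 11.6% fell, and of those without it 3.90% did. The share among genes that fell was 21.6% without control replicate 1, 22.1% without control replicate 2 and 9.86% without knockout replicate 1. Of 19 tested genes with both motifs 5 fell. In all 7 motifs were searched. Sites for NF-kB stood in 14.3% of the promoters of genes that fell and 13.2% of those of tested genes, and the CArG box in 1.54% and 1.10%. The antioxidant response element, searched as TGAC, 3 bases of any kind and GC, stood in 68 of 454 promoters of genes that fell and in 14.9% of those of tested genes. The cyclic AMP response element, TGAC followed by GTCA, stood in 1.54% and 3.11%, and the E2F motif, TTT, then C or G, then GCGC, in 0.220% and 1.89%. All were searched on both strands. A match is a description of the letters, not a site shown to be bound.

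The windows below are shown because they carry these motifs in genes whose values are given above. Each is a stretch of 80 bases that ends before the start of transcription, written 5′ to 3′ along the gene, with the motif in capitals on either strand. The first 5 hold the interferon response element.
IFIT1, chr10:89392485-89392564, plus strand: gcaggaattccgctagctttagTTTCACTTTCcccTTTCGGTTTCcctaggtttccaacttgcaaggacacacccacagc
CFB, chr6:31945920-31945999, plus strand: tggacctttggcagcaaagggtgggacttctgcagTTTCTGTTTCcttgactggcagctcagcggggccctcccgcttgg
ISG20, chr15:88638912-88638991, plus strand: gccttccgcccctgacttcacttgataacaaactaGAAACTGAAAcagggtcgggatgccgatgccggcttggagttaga
ISG15, chr1:1013355-1013434, plus strand: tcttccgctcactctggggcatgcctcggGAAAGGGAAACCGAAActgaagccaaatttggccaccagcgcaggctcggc
EPSTI1, chr13:42992247-42992326, minus strand: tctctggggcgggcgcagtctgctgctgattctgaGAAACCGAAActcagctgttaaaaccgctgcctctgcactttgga
The next 5 hold the AP-1 motif.
SPRR1A, chr1:152983938-152984017, plus strand: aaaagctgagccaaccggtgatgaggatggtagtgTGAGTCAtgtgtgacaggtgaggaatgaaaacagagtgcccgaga
SPRR3, chr1:153001544-153001623, plus strand: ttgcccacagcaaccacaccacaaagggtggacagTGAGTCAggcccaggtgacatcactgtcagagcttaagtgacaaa
CLCA2, chr1:86423976-86424055, plus strand: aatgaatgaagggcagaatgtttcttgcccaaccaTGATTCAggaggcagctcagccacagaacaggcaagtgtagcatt
GJA1, chr6:121435563-121435642, plus strand: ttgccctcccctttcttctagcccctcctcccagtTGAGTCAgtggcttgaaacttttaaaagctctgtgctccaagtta
MMP7, chr11:102530770-102530849, minus strand: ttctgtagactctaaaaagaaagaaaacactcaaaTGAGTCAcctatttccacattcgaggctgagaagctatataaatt
IFIT1 and ISG15 carry more than 1 copy of the response element in this stretch, and those of ISG15 overlap. EPSTI1, an interferon-stimulated gene of the effector list, had a difference of -0.84. ISG20, a nuclease that degrades viral RNA (8.88 and 9.02 on the control and 7.64 and 7.70 on the knockout arrays, difference -1.28), also has an AP-1 motif nearer to its start. CLCA2, a regulator of chloride conductance in squamous cells, had the largest difference of all tested genes (7.68 and 7.60 on the control and 3.32 and 3.40 on the knockout arrays, difference -4.28).

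Panc1 offers the only other knockout of the series. With 1 control and 1 knockout array it has no replicate check, and its differences are given without a test. Of the 582 genes that fell in BxPC3, 331 (56.9%) were lower on the Panc1 knockout array, against 54.5% of the 189 that rose in BxPC3 and 49.9% of all tested genes, and 60 (10.3%) were at least 2-fold lower, against 3.13% of all tested genes. Another 7 (1.20%) were at least 2-fold higher in Panc1, against 0.484% of all tested genes. These 60 made up 14.5% of the 414 tested genes that were 2-fold lower in Panc1. Of the 189 genes that rose in BxPC3, 21 (11.1%) were at least 2-fold lower in Panc1 and 1 was 2-fold higher. Lower at least 2-fold in both lines were, among others, CA2 (-3.21 in BxPC3, -1.45 in Panc1), CCND2 (-2.67, -1.93), CCL20 (-1.78, -2.02), TNFSF9 (-1.85, -1.39), CFB (-1.55, -1.79), IGFBP2 (-1.51, -2.99) and CDKN1A (-1.14, -1.03).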

How the data were processed

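Total RNA of 4 BxPC3 arrays, 2 per group, was compared. The authors deposited 1 log2 value per probe set and array, made with RMA in the affy package, per the submitters' processing notes; versions, chip definition and genome build are not given in the sources used here. RMA aligns the distributions of the arrays it is given, so that a shift of most genes one way would be removed. The table held 54613 probe sets, of which the platform annotation gives 41091 a single symbol, 1801 several and 11721 none. Arrays carry no read depth, and their number limits the precision.

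Knockout and control were compared with limma 3.58.1 (lmFit and eBayes) in R 4.3.3, with 2 residual and 3.12 prior degrees of freedom and Benjamini-Hochberg adjustment over 13217 genes at 0.05. Counting a gene as called means passing that threshold. The steps were also tested on simulated data. Lists were described by counts and medians without a set test. The comparison, its members and the 51 gene lists were chosen with earlier results of these data known; 155 of 1783 list entries were without a single-symbol probe set. Genes were named from a pool set by rule: KDM6A, CDKN1A, SMAD4 and CDKN2A, called genes ranked 13 to 42 by size in each direction, up to 8 members of each list with the smallest p and those at its ends, and called genes of a neighbourhood. Not every gene of that pool is named, so that the named genes are a selection from it. Left out of the Results were, among others, DMD (-2.22), SCGB1A1 (-3.14), MAP3K8 (-0.92) and CLDN8 (0.84). The brightest CDKN2A probe set read 5.49 and 5.60 on the control and 5.87 and 5.78 on the knockout arrays. These values exceeded the array median on all 4 arrays, unlike those of SMAD4, and the difference of 0.28 was not called. Genes named beyond this rule were chosen after their values were seen. Promoter windows come from RefSeq (GRCh38.p14). Alternatives concerned the probe set, the filter on dim genes, scaling, the variance model, the replicate number and leaving out each array.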

Additional observations from a re-analysis of the deposited data

Results flagged for a closer look

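In 3 genes the knockout arrays of the lines lay on opposite sides of their controls, each by at least 2-fold. LIPG, an endothelial lipase, differed by -1.49 in BxPC3 and by 1.03 in Panc1. ID3, an inhibitor of basic helix-loop-helix factors, differed by -1.14 in BxPC3 and by 1.67 in Panc1. DNER, a Notch-related membrane protein, differed by -1.04 in BxPC3 and by 1.07 in Panc1, where the control array read 2.89. Panc1 had 1 array per group, and the difference between the lines was not tested.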

How the results depend on the processing

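With the probe sets of a gene averaged, 12 genes rose at least 2-fold instead of 20. Without _x_at and _s_at probe sets 382 genes fell. With no filter 453 genes were called, 368 fell and 85 rose, over 19775 genes tested. With the filter at the median on all 4 arrays 92 genes fell at least 2-fold, which leaves out genes low in 1 group. The number that rose was 304 with arrays centred on their median, 303 with cyclic loess and 353 with quantile scaling, and these moved the median of all genes by 0.027 at most. With a variance trend 1369 genes were called, 966 fell and 403 rose, and the AP-1 motif stood in 10.1% of the promoters of genes that fell. With the replicate number as a replicate block 483 genes were called, 386 fell and 97 rose. Deviations of same-numbered arrays correlated at -0.12 over all probe sets and at -0.17 over tested genes. With 1 difference per group, these values cannot show whether same-numbered arrays were handled together, which the labels do not state. With the numbers crossed, chosen after seeing the data, 600 genes were called. The cause of these differences was not tested.

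With each array left out in turn, 137 to 1439 genes were called, 118 to 1007 fell, 19 to 432 rose, 110 to 165 fell at least 2-fold and 15 to 33 rose at least 2-fold; where a group keeps 1 array, that array is assumed to vary as the other group's do. The share of chromosome 5 genes below 0 ran from 63.1% to 75.0% and that of chromosome 13 genes from 25.7% to 46.8%. The response element stood in 5.81% to 12.5% and the AP-1 motif in 9.86% to 22.1% of the promoters of genes that fell. Of 771 calls, the numbers that kept their call and direction were 162, 136, 709 and 578 without control replicate 1, control replicate 2, knockout replicate 1 and knockout replicate 2, 468 with the replicate block and 745 with quantile scaling, and 6 of 601 changed sign without _x_at and _s_at probe sets.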
